A study of Arabidopsis thaliana with 8 samples.

Results

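Shoots of an Arabidopsis thaliana HSA32 knockout were compared with wild-type shoots after 2 h at 37 °C, on 4 of the 8 arrays of the study. The knockout heat group held 2 arrays of Col-0 seedlings with the T-DNA allele GABI-268A08 in HSA32 (At4g21320), and the wild-type heat group held 2 arrays of Col-0 seedlings without it. The other 4 arrays came from the same genotypes kept at 22 °C, again 2 of the knockout and 2 of wild type. Seedlings were 15 days old (given as 2 weeks in the stage label), and each array came from its own pool of about 100 plants. The arrays were chosen by their titles, and 22746 probe sets remained once the 64 array controls were set aside. A single insertion allele stood for the loss of HSA32, so an effect of that allele on another gene cannot be told apart from an effect of losing HSA32.

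Plants exposed to heat switch on chaperones through heat shock transcription factors, and a plant that has lived through a mild heat treatment tolerates a later, harsher one. HSA32 is a heat-induced plant protein without chaperone family membership, known for keeping this acquired tolerance over a long recovery. The arrays sampled the shoot at the end of a first heat treatment, so the comparison asks which transcripts differed when the response was in progress, not during the recovery in which HSA32 is known to act.

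Signals were deposited on a linear scale, with medians of 132.3 and 132.95 on the knockout heat arrays and 133.9 and 131.4 on the wild-type heat arrays. Differences are given as knockout minus wild type of log2(signal + 29.1), fitted in limma over all 8 arrays for the 15919 probe sets above the dim 30%. The offset of 29.1 makes differences of dim transcripts smaller than those of the signals. The 2 wild-type heat arrays were the least alike of any pair among the 4 heated arrays, with a correlation of 0.8699 across probe sets, against 0.9488 for the 2 knockout heat arrays. Wild-type heat replicate 2 lay closer to knockout heat replicate 1 (0.9639) and knockout heat replicate 2 (0.9441) than to wild-type heat replicate 1. These correlations run across probe sets, which are not independent, and they describe the arrays only. Because wild-type heat replicate 1 stood apart, values without it are given beside some of the results that it touches. A value given without such a companion can still depend on that array. The leaf marker LHCB4.1, a light-harvesting antenna protein of photosystem II, was bright on every heated array (40556 and 23145 in the knockout, 22556 and 39993 in wild type). EXPA7, an expansin of root hairs, had signals of 16.6 and 11.3 in the knockout and 57.6 and 71.3 in wild type, and its mean over all arrays was too low for it to be tested. The other 4 root markers and all seed and flower markers had no probe set paired with a single gene and were not used here.

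HSA32 itself separated the heated groups. Its signal was 378.2 and 589.1 in the heated knockout, against 23175 and 9240 in heated wild type, so the lower wild-type array still stood far above both knockout arrays. The log2 difference was -4.87 ± 0.57 (SE, n = 2 each), which corresponds to 29.2-fold more in wild type. It ranked first by p among the probe sets tested. After Benjamini-Hochberg adjustment over all 15919 probe sets in limma, its adjusted p was 0.23, so the difference did not pass the threshold of 0.05. At 22 °C the order was the other way, with 1125 and 1247 in the knockout against 657.3 and 230 in wild type. The position of the probes with respect to the T-DNA was not known, so the remaining knockout signal is no check of the labels. Among the 20 loci nearest to HSA32, 10 on each side, 2 were tested. Their log2 differences after heat were -0.91 and -0.36, and the arrays of the 2 groups overlapped for both. At 22 °C the neighbour AT4G21323 was dim and lay higher in the knockout, with 63.6 and 146.1 against 12.4 and 12.4 in wild type (1.62 ± 0.82, adjusted p = 1, limma), again without overlap. The other neighbour, AT4G21310, lay at -0.01. Both were named after their values were seen.

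**Figure D1:**
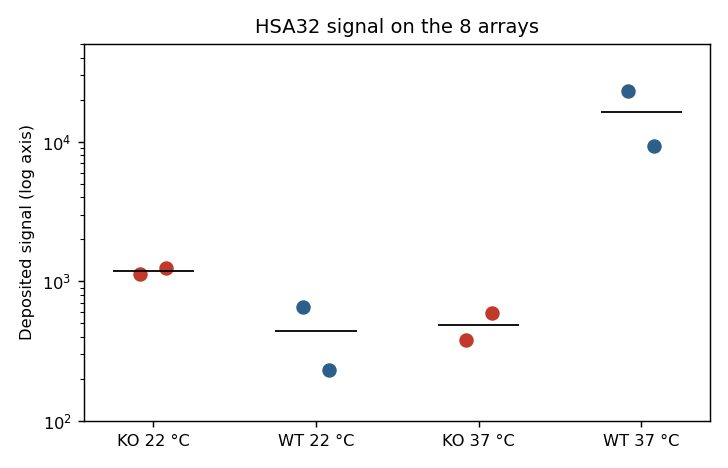
Deposited HSA32 signal (log axis, arbitrary units) on each array, by genotype and temperature, with bars at the group means. Both heated knockout arrays (378.2 and 589.1) lie below both heated wild-type arrays (23175 and 9240), while at 22 °C both knockout arrays lie above both wild-type arrays.

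No probe set passed the adjusted threshold in limma (0 of 15919, 0%), and 280 (1.76%) had an unadjusted p under 0.05, of which 124 (0.779%) were higher in the knockout and 156 (0.98%) lower. The heated groups did not overlap for 3409 probe sets (21.4%), with both knockout arrays above both wild-type arrays for 1582 (9.94%) and below both for 1827 (11.5%). The median SE of a difference was 0.4 on the log2 scale, so moderate changes of single genes were hard to tell from the spread between arrays. A log2 difference of at least 1 was reached by 194 probe sets with the knockout higher and 188 with the knockout lower. At 2 or more the counts were 2 and 2, and at 3 or more HSA32 was alone.

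**Figure D2:**
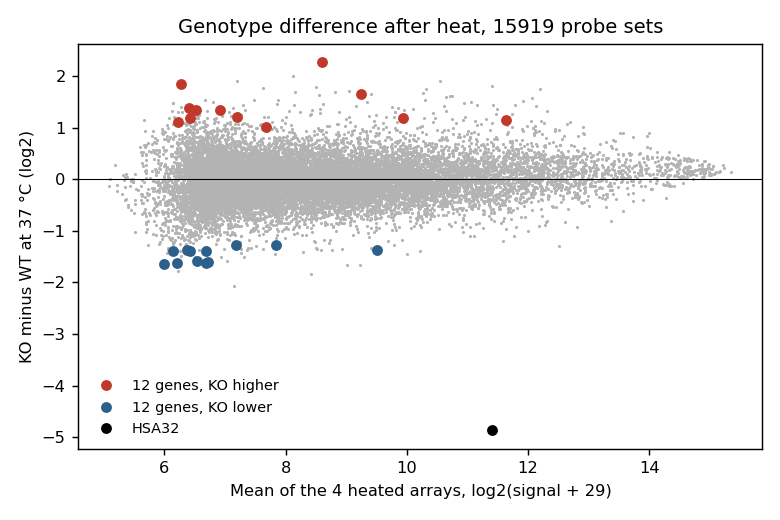
Knockout minus wild type at 37 °C (log2) against the mean level on the 4 heated arrays (log2 of signal plus 29.1) for the 15919 tested probe sets, with the 24 named genes and HSA32 marked. HSA32, at -4.87, lies far outside the cloud, and most of the 12 genes with the knockout lower lie at its dim end.

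The genes named next are those with the smallest p in each direction among probe sets paired with a single gene whose heated groups did not overlap. HSA32 aside, there were 901 such probe sets with the knockout higher and 1035 with the knockout lower, of 8790 tested with a single gene. From each side 12 were taken. They were picked for this difference, so the values describe them and no test of them is claimed. All 24 had an adjusted p of 1 in limma.

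On the side with the knockout higher, AT3G22850, whose product belongs to a family resembling an aluminium-induced protein, came first. Its signal was 810 and 1333 in the heated knockout and 285.1 and 340.9 in heated wild type, a log2 difference of 1.65 ± 0.36. It also lay higher in the knockout at 22 °C, with 717.7 and 989.5 against 282.4 and 322.2, so the knockout arrays stood above the wild-type arrays at both temperatures. AT5G39090, an acyltransferase of the plant-specific HXXXD type, had 143.5 and 96.3 in the heated knockout against 6.4 and 17.8 in heated wild type. Its difference was 1.85 ± 0.45 after heat and 1.06 at 22 °C, again without overlap at either temperature. THI2.1, an antimicrobial thionin induced by jasmonate, had 125.4 and 108.3 in the heated knockout against 21.2 and 36.2 in heated wild type (1.35 ± 0.40). At 22 °C its difference was 0.85. For these 3 genes the difference after heat exceeded the one at 22 °C by 0.25 to 0.79, and the interaction had adjusted p = 1 in limma for each.

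Several of the 12 were genes that heat itself raised, by the mean heat effect over both genotypes in limma. AT4G02550 read 4480 and 4922 in the heated knockout against 1649 and 2696 in heated wild type, a difference of 1.14 ± 0.35. Without wild-type heat replicate 1 that difference was 0.79. At 22 °C AT4G02550 read 112 and 145.2 in the knockout against 142.6 and 120.6 in wild type. The groups thus differed after heat and overlapped without it. AT5G53680, an RNA-binding protein of the RRM type, had 1203 and 1757 in the heated knockout against 512.4 and 757.4 in heated wild type (1.18 ± 0.36). Its 22 °C signals were 53.7 and 34.2 in the knockout and 30.7 and 44.5 in wild type, and heat raised it by 3.83 on average over the genotypes (adjusted p = 2.9e-05, limma). AT1G10260 had the highest difference of the named genes, 2.26 ± 0.76, from 468.7 and 1440 in the heated knockout and 47 and 387.4 in heated wild type. The spread within each group was wide. With 1 heated array left out the difference lay between 1.04 (without wild-type heat replicate 1) and 3.49 (without wild-type heat replicate 2). At 1.04 it was no longer the highest, since AT2G39500 lay at 1.87 without the same array. Its probe set is of a type that can read several similar transcripts. AT2G09840 had 203.4 and 183.5 in the heated knockout against 51.5 and 85.7 in heated wild type (1.21 ± 0.40). At 22 °C it had 61.7 and 20.8 in the knockout against 42.9 and 59.6 in wild type. Its wild-type signals thus overlapped between the temperatures. Its mean heat effect of 1.00 rested mostly on the knockout heat arrays, which also picked it here.

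The other 5 had knockout heat signals of 55.7 to 306.7. AT5G22690, a TIR-NBS-LRR gene of the disease resistance type, had 221.3 and 306.7 in the heated knockout against 103.6 and 127.4 in heated wild type (1.01 ± 0.31). AT4G38700, a dirigent-like gene, had 119.6 and 83.9 against 36.2 and 21.1 (1.18 ± 0.36). AT1G55915 had 115.6 and 99.3 in the heated knockout and 20.7 and 25.7 in heated wild type (1.38 ± 0.43). For none of these 3 did the 22 °C difference exceed 0.09 in size. AT2G39500 differed by 1.34 ± 0.44 after heat. AT1G13000, which heat lowered in both genotypes on average (-2.15, adjusted p = 0.001, limma), had 113.4 and 55.7 in the heated knockout against 27.6 and 17.1 in heated wild type (1.10 ± 0.36). In 5 of the 12 genes both wild-type heat signals lay under 61.7, the mean level under which probe sets were left out.

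On the side with the knockout lower, most signals were dim. Both knockout heat signals lay under 61.7 in 9 of the 12 genes, so these differences rest on values near the lower end of the arrays. AT5G13520, a peptidase of the M1 family, had 37.9 and 21.5 in the heated knockout against 152.8 and 150.5 in heated wild type, a difference of -1.63 ± 0.34. AT1G14950, related to the major latex proteins, had 32.4 and 17.4 against 128.9 and 133.3 (-1.58 ± 0.35). AT3G45720, a transporter of the nitrate and peptide family, had 11.2 and 14.7 against 72.3 and 138.4 (-1.63 ± 0.38). At 22 °C these last 2 genes had the knockout higher, by 0.43 and 0.52, with no overlap between the genotypes.

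ATMPK8, a mitogen-activated protein kinase, had 16.7 and 12.7 in the heated knockout against 85.4 and 86.6 in heated wild type (-1.40 ± 0.34). Its 22 °C signals overlapped, at 182.3 and 304.2 in the knockout and 256.3 and 231.7 in wild type, and the mean heat effect over the genotypes was -1.92 (adjusted p = 0.0013, limma). AT2G45870, of the bestrophin-like channel family, had 10.9 and 3.3 against 55.3 and 119.4 after heat (-1.64 ± 0.40). AT1G31220, which encodes a formyltransferase of purine synthesis, had 40.2 and 22.9 in the heated knockout against 222.3 and 104.9 in heated wild type (-1.61 ± 0.40). AT5G66650, related to the mitochondrial calcium uniporter, differed by -1.40 ± 0.37. AT2G20410 and AT3G12950, the second of a trypsin-like family, differed by -1.37 ± 0.37 and -1.38 ± 0.38.

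The 3 brighter genes of this side were IAGLU, AT3G28590 and AT1G72390. IAGLU, a glucosyltransferase that conjugates the auxin indole-3-acetic acid, had 335.4 and 533.8 in the heated knockout against 1482 and 873.4 in heated wild type (-1.37 ± 0.39). At 22 °C it had 1424 and 1752 in the knockout against 1442 and 1714 in wild type, nearly the same range, and the interaction was -1.37 (adjusted p = 1, limma). AT3G28590 had 116.7 and 121.7 in the heated knockout against 290.5 and 370.1 in heated wild type (-1.27 ± 0.32). AT1G72390 had 71.5 and 58 against 277.5 and 139.1 (-1.28 ± 0.37).

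**Figure D3:**
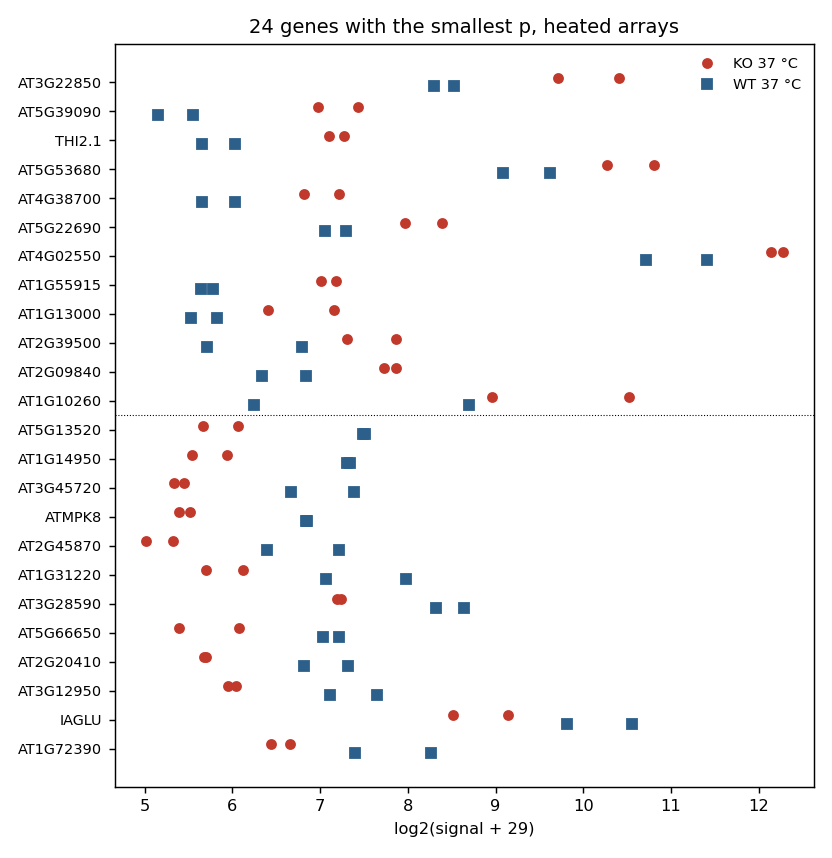
Signals of the 24 named genes on the 4 heated arrays, as log2 of signal plus 29.1, with knockout arrays as circles and wild-type arrays as squares and the 12 genes with the knockout higher above the dotted line. The groups are apart for each gene because non-overlap was part of how the genes were picked, and 9 of the 12 lower genes have both knockout signals under 61.7.

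The 22 °C arrays are other hybridisations and give the same genotype difference without heat. They are not independent of the heated ones, since replicate 1 deviated from replicate 2 in a similar way at both temperatures, with a correlation across probe sets of 0.525 in the knockout and 0.542 in wild type. Over all tested probe sets the genotypes were apart at 22 °C with the knockout higher for 1863 (11.7%) and lower for 1510 (9.49%). Of the 12 higher genes 8 had the same sign at 22 °C, 3 without overlap, and 9 had a 22 °C difference under 0.5 in size. Of the 12 lower genes 7 had the same sign, 0 without overlap, and 11 were under 0.5. At 22 °C limma passed 0 of 15919 probe sets (0%), with 82 (0.515%) at an unadjusted p under 0.05. The interaction, which tests whether the genotype difference changed with heat, passed 0 as well (0%), with 88 (0.553%) at an unadjusted p under 0.05. Among the named genes the interaction had an unadjusted p under 0.05 in 4 of the 12 higher and 8 of the 12 lower genes. The interaction uses the same heated arrays that picked these genes, so this count is a description.

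A wider view of the same question used the 100 probe sets with the smallest p on each side. Of the 100 with the knockout higher after heat, 77 were also higher in the knockout at 22 °C, against 62.8% of the 7684 tested probe sets with a positive difference after heat. Of the 100 with the knockout lower, 52 were also lower at 22 °C, against 62.2% of 8235. Without wild-type heat replicate 1 the counts were 43 and 44 of 100, against 44% and 44.2% of all. Without both arrays of wild-type replicate 1 they were 76 and 65, against 59.6% and 56.7%, and with crossed replicate numbers as a block (an alternative chosen after seeing the data) 87 and 69, against 62.8% and 62.2%. The surplus over all probe sets thus depended on which wild-type arrays were used, and no weight is put on it.

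Chaperones, the core of the heat response, were then set side by side. The 9 tested small heat shock proteins, which keep unfolding proteins from clumping, all had the knockout higher after heat, by 0.11 to 0.86 with a median of 0.23, against -0.01 for all genes tested. For 0 of the 9 were the groups apart, and 0 passed. Of all tested probe sets 21.4% were apart, 9.94% with the knockout higher, and these shares also stand beside the counts of the lists below. HSP26.5 had 37296 and 23162 in the heated knockout against 18657 and 26376 in heated wild type (0.41 ± 0.36), so the wild-type arrays lay on both sides of the lower knockout array. HSP15.4, the dimmest of these 9, had 733.2 and 983.7 against 227.2 and 880.1 (0.86 ± 0.71). Without wild-type heat replicate 1 it lay at -0.05. Unlike the others of the 9, it was not called as raised by heat (mean heat effect -1.39, adjusted p = 0.091, limma). HSP18.5 (0.46 ± 0.54) and HSP23.5-M (0.39 ± 0.55) overlapped as well. The mean log2 level of the 9 was 14.55 and 14.00 in the knockout against 13.65 and 14.22 in wild type. Their median was 0.05 without wild-type heat replicate 1, 0.04 under quantile normalization and -0.05 without knockout heat replicate 1, so no direction is given for this family.

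The HSP70 family, chaperones that grip exposed stretches of unfolded proteins, had 4 tested members with differences of 0.24 to 0.73 and a median of 0.41. HSP70-17 had 474.3 and 1494 in the heated knockout against 659.5 and 373.3 in heated wild type (0.73 ± 0.55), and HSP70-3 had 29134 and 20926 against 12042 and 28903 (0.40 ± 0.50). The arrays of the genotypes overlapped for all 4. Among 3 chaperonin subunits of the chloroplast, which enclose proteins while they fold, 1 was apart, Cpn60beta4 with 220 and 235.8 against 204.7 and 122.4 (0.45 ± 0.35). Cpn60beta2, the brightest, had 21289 and 20566 against 17189 and 20644 (0.15 ± 0.61).

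Of 11 tested cochaperones 10 had a positive difference, with a median of 0.25, and 0 passed. BOB1, a NudC-domain protein needed for heat tolerance and development, had 7250 and 9297 in the heated knockout against 7489 and 4828 in heated wild type (0.45 ± 0.41). Fes1C, of a nucleotide exchange factor family of HSP70, was the exception, with 603.9 and 556.1 against 1338 and 499.2 (-0.48 ± 0.55). This rested on wild-type heat replicate 1. Without that array Fes1C lay at 0.20, while the cochaperones Fes1B and P23-1 lay at -0.06 and -0.11. The J-domain gene DNAJ (AT2G20560) had 21248 and 18092 against 11023 and 19186 (0.43 ± 0.61). Without wild-type heat replicate 1 it lay at 0.03. At 22 °C it lay at -1.65 (adjusted p = 1, limma). The 22 °C signals were 9.5 and 11.4 in the knockout against 222.6 and 31.9 in wild type. All but that of wild-type control replicate 1 were dim. The title of that array says control and its source text says only heat. The mean log2 level of the 11 cochaperones was 9.11 on it, against 8.19 on wild-type control replicate 2. On the knockout arrays at 22 °C it was 8.05 and 8.38. The reason was not tested. Hop3, which links HSP70 to HSP90 and was singled out after its values were seen, was the only cochaperone of the 11 without overlap, at 20842 and 19552 against 17810 and 15549 (0.28 ± 0.51). Under the settings tried the list medians stayed positive. They lay at 0.15 to 0.69 for HSP70, 0.14 to 0.76 for the chaperonins and 0.12 to 0.27 for the cochaperones. Single genes were less steady, and each HSP70 member turned negative without some heated array. Without wild-type heat replicate 1 HSP70-3 lay at -0.23 and Hsp70-2 at -0.64. Without knockout heat replicate 2 HSP70-16 lay at -0.25 and HSP70-17 at -0.06. The chaperonin Cpn60beta3 lay at -0.15 without wild-type heat replicate 2. No member of the HSP90 and HSP100 or heat shock factor lists had a probe set paired with a single gene, so these families were not analysed here. TIL (0.15), a lipocalin of heat tolerance, RCA (0.11), the activase of Rubisco, and BZIP28 (-0.11), a transcription factor of ER stress, made up the other heat response list.

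**Figure D4:**
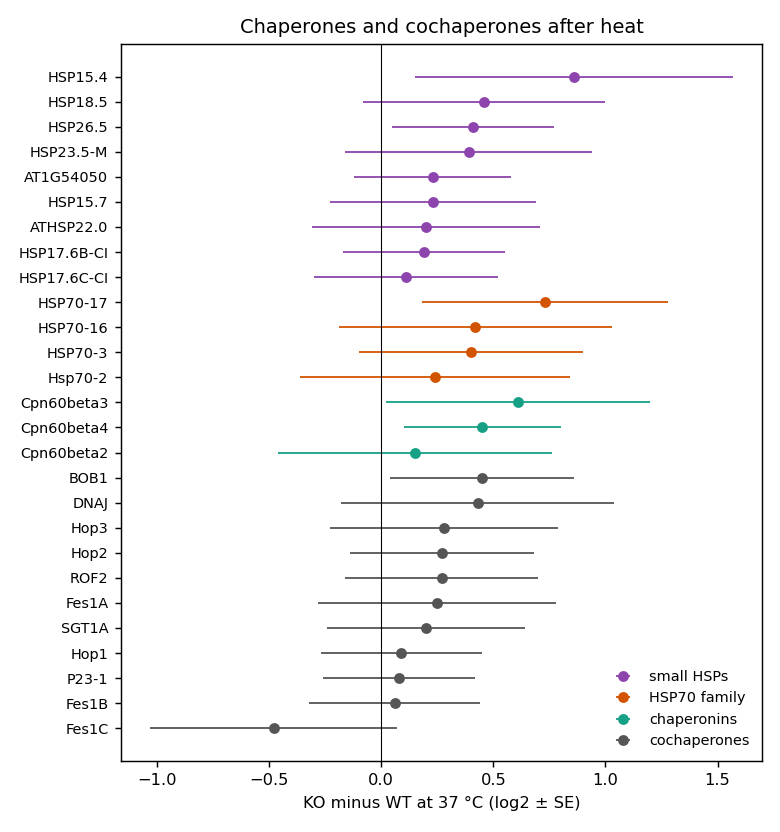
Knockout minus wild type at 37 °C (log2, points) with its SE (bars) for the 27 tested members of 4 chaperone lists. Every point but Fes1C lies to the right of 0 in this fit of all arrays, and most bars cross 0.

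The remaining lists gave small counts. Among 3 auxin genes WES1, a GH3 enzyme that conjugates auxin to amino acids, had 1784 and 1216 in the heated knockout against 5591 and 1823 in heated wild type, without overlap (-1.10 ± 0.51). Its difference was -0.30 without wild-type heat replicate 1 and -1.90 without wild-type heat replicate 2. It is an auxin-conjugating enzyme gene like IAGLU above, but GH3.3 of the same family overlapped (-0.30 ± 0.71), and IAA29, an auxin signalling repressor, lay at 0.41 ± 0.55. In the jasmonate, thionin and defensin list 3 of 5 named members were tested. THI2.1 is given above, the second thionin gene THI2.2 had 7532 and 4519 in the heated knockout against 1910 and 5414 in heated wild type (0.85 ± 0.68), and LCR69 lay at -0.49 ± 0.47. Their median of 0.85 was 0.11 without wild-type heat replicate 1, and LCR69 lay at 0.01 without it.

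The proteasome subunit RPN2A had 704.3 and 582.3 in the heated knockout against 947.7 and 752 in heated wild type, also without overlap (-0.38 ± 0.33), and RPN12a overlapped (-0.23). The calreticulin CRT1b, an ER chaperone, had 756 and 930.2 against 595.3 and 741.6 (0.32 ± 0.33), and the ER stress factor BZIP60 lay at -0.18. SAG101, of the defence and senescence regulators around EDS1, had 107.2 and 96.2 against 61.8 and 82.5 (0.38 ± 0.33). PRL, a replication helicase subunit, had 211.9 and 183.9 against 155 and 154.3 (0.30 ± 0.30), and the Aurora kinases AUR2 (0.15) and AUR1 (-0.10) overlapped. Cold and dehydration genes lay at 0.50 (COR15A), 0.18 (COR47), -0.08 (LTI30) and -0.16 (COR15B), with a median of 0.05. COR47 came to 0.00 under quantile normalization. LHCB4.1 (0.03), the chlorophyll enzymes CHLM (0.16) and PORB (-0.24), the clock gene GI (0.00), the flavonoid enzyme DFR (0.10), the zinc finger STZ (0.44 ± 1.04) and the expansins EXPA8 (0.83 ± 0.83) and EXPA4 (-0.25 ± 0.65) all overlapped between the genotypes. The medians of the dehydration, light harvesting, chlorophyll, flavonoid, reactive oxygen, ER folding, cell cycle and other heat response lists changed sign when wild-type heat replicate 1 was left out. GI, alone in the clock list, lay at 0.31 without that array, EXPA8 at -0.47 and COR15A at 0.06. In all, 56 list members were tested and 0 passed.

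A broader set was formed after the values had been seen, from the 412 genes that passed as raised by heat in the mean over both genotypes in limma (835 probe sets, 5.25%, were called higher in that contrast and 1916, 12%, lower). The median knockout minus wild type difference of these 412 genes after heat was 0.27, against -0.01 for all genes, with 331 positive and 81 negative. The arrays were apart with the knockout higher for 95 and with the knockout lower for 8, against 893 and 1023 of all 8689 genes tested. The mean heat effect includes the heated arrays compared here, so a gene high on the knockout heat arrays alone could enter the set. The genes lowered by heat were chosen in the same way. The values of both sets are therefore descriptions, and no test is claimed. Their mean log2 level was 10.73 and 10.82 in the heated knockout against 10.38 and 10.56 in heated wild type, so the groups did not overlap. At 22 °C the median was -0.08. The median after heat lay between 0.20 and 0.34 under the settings tried, with 0.21 without wild-type heat replicate 1 and 0.30 without wild-type heat replicate 2. The wild-type heat arrays were the lowest of the 4 for 190 (replicate 1) and 139 (replicate 2) of the 412 genes, against 52 and 31 for the knockout heat arrays, replicates 1 and 2. The 988 genes lowered by heat had a median of -0.13, with 642 negative and 346 positive. Their mean log2 level was 7.55 and 7.69 in the heated knockout against 7.93 and 7.59 in heated wild type, which overlapped, and the median was 0.00 without wild-type heat replicate 1.

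Transcripts of the organelle genomes moved with single arrays. In bulk shoot RNA, fewer cells of a type and less RNA per cell cannot be told apart. The 68 tested plastid genes had a median difference of 0.28, with 55 positive and 13 negative, and were apart with the knockout higher for 17 and lower for 3, against 9.94% and 11.5% of all probe sets. Wild-type heat replicate 1 was the lowest array for 36 of the 68, and the median was 0.18 without it. By role, the median was 0.48 for 5 photosystem I genes and for 9 NADH dehydrogenase-like genes, 0.70 for 4 RNA polymerase subunits, 0.19 for 6 ATP synthase genes, 0.15 for 15 photosystem II genes, 0.10 for 15 ribosomal protein genes and -0.21 for 6 cytochrome b6f genes. Without wild-type heat replicate 1 these medians were 0.17 (photosystem I), 0.26 (NADH dehydrogenase-like), 0.45 (RNA polymerase) and 0.22 (ATP synthase). The others were -0.20 (photosystem II), 0.41 (ribosomal proteins) and -0.45 (cytochrome b6f), so the photosystem II median changed sign. Without wild-type heat replicate 2 the cytochrome b6f median turned to 0.45 and the ribosomal protein median to -0.35. Those 2 medians also changed sign without knockout heat replicate 2, and that of photosystem II without knockout heat replicate 1. The RNA polymerase subunit rpoB had 289.7 and 289.6 in the heated knockout against 87.1 and 186.7 in heated wild type (1.01 ± 0.42).

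Neighbouring plastid genes are given next, a group formed after the values were seen. Plastid genes outside the group differed as much, such as rps4 (1.32, without overlap) and psaC (1.21, with overlap). The gene rbcL, next to accD by locus number, was also apart (0.93) but was left out of the group. accD, psaI, ycf4, cemA and petA lie next to each other on the plastid genome, and all 5 were apart with the knockout higher, by 0.87 to 1.39. Of all probe sets 9.94% were apart in this direction. The 5 were grouped with their values known, so no weight is put on their count. accD, a subunit of acetyl-CoA carboxylase, had 1083 and 2003 in the heated knockout against 505.7 and 587.4 in heated wild type (1.39 ± 0.54). cemA, an envelope membrane protein, had 8442 and 11127 against 3315 and 6052 (1.11 ± 0.43), and petA, cytochrome f, had 9500 and 11480 against 4835 and 6721 (0.87 ± 0.35). psaI, a photosystem I subunit, had 6912 and 4822 against 1912 and 4172 (1.02 ± 0.43), and ycf4, a photosystem I assembly factor, had 5383 and 9476 against 2392 and 4639 (1.09 ± 0.59). The median of the 5 was 1.09, or 0.63 without wild-type heat replicate 1 and 1.54 without wild-type heat replicate 2, and at 22 °C it was 0.37.

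All 15 tested mitochondrial genes had a positive difference, with a median of 0.83, but wild-type heat replicate 1 was the lowest array for 15 of the 15. The cytochrome oxidase subunit cox2 had 6700 and 2088 in the heated knockout against 498.3 and 3612 in heated wild type (1.45 ± 0.97). The complex I subunit nad6 had 10082 and 5419 against 626.7 and 9378 (1.58 ± 1.05). For nad9, another complex I subunit and the only gene of the 15 without overlap, the signals were 2381 and 1946 against 719 and 1670 (0.95 ± 0.43). The mean log2 level of the 15 was 11.21 and 10.53 in the knockout against 8.97 and 11.11 in wild type, and without wild-type heat replicate 1 the median turned to -0.34.

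**Figure D5:**
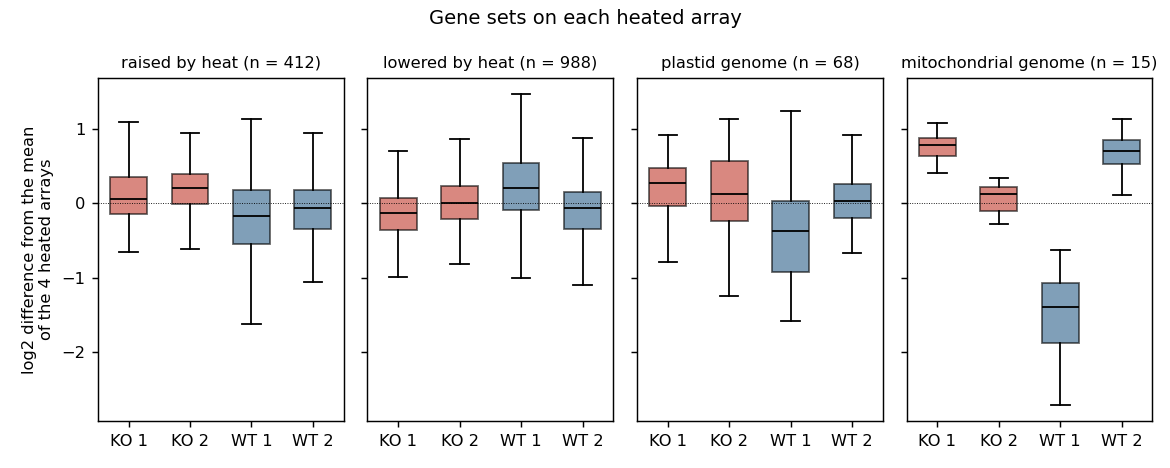
Log2 difference of each gene from its mean over the 4 heated arrays, as boxes over genes (median, quartiles, whiskers to 1.5 interquartile ranges, outliers not drawn) for 4 gene sets, with knockout arrays left of wild-type arrays. The genes raised by heat sit lower on both wild-type arrays, whereas the mitochondrial genes are low on wild-type heat replicate 1 alone. The raised and lowered sets were chosen on values that include these heated arrays.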

How the data were processed

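Total RNA from 15-day shoots was labelled with biotin and hybridised to 8 one-colour arrays, 1 per pool of plants, with 2 arrays in each of 4 groups of genotype and temperature, per the labels. The authors deposited 1 linear intensity value per probe set and array. The software and its settings: not given in the sources used here. On each array the 2% trimmed mean was about 500 (500.04 to 500.07). For wild-type control replicate 1 the title says control and the source text says only heat, and the title was used.

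After removal of control probe sets and of the dimmest 30% (a mean signal of 61.7 or lower), 15919 of 22746 were tested. Values were fitted as log2(signal + 29.1), the offset being the 20th percentile, in limma 3.58.1 (R 4.3.3) with 1 mean per group and a variance trend (4 residual and 4.79 prior degrees of freedom). Two-sided p-values were adjusted over all tested probe sets by the Benjamini-Hochberg method, at a threshold of 0.05. Errors of differences are standard errors, and the number of arrays limits the precision. The fit was also run on simulated data with large added changes and noise drawn independently for each array. In these data arrays of 1 genotype deviated together and most differences were smaller. The simulation therefore does not show how such differences are recovered.

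The platform annotation paired 8790 tested probe sets with 1 gene, 327 with several and 6802 with none here. The brightest probe set stood for a locus (8689 genes). Genes are given by locus, without coordinates, since the build was not given. Mitochondrial genes were found by the symbols of the annotation.

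The genes and 25 lists (267 loci, 60 named, 56 tested, 5 lists without a tested member) were chosen with earlier results of these data known. Named genes were HSA32, the 12 smallest p in each direction among single-gene probe sets without overlap, and up to 4 members of each list by p. Other cochaperones, small heat shock proteins and organelle genes were named after their values were seen. Alternatives were other offsets (7.28 and 116), filters, quantile normalization, median centring, the 4 heated arrays alone, blocks and leaving out arrays. Deviations of same-numbered replicates correlated at 0.525 between temperatures in the knockout and 0.542 in wild type, but at -0.389 between the heated genotypes and -0.351 between the genotypes at 22 °C. The numbers therefore do not pair knockout with wild-type arrays, while arrays of 1 number within a genotype deviated together.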

Additional observations from a re-analysis of the deposited data

Results flagged for a closer look

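Of the genes named, 4 had knockout arrays on opposite sides of the wild-type arrays at the 2 temperatures. HSA32 was below wild type after heat and above it at 22 °C, with an interaction of -6.39 ± 0.80 (adjusted p = 0.42, limma). AT1G14950 (-2.02, adjusted p = 1) and AT3G45720 (-2.15, adjusted p = 1) also lay below wild type after heat and above it at 22 °C. AT5G22690 lay above wild type after heat and below it at 22 °C (1.10, adjusted p = 1). The last 3 were picked for their difference after heat, so their interactions are descriptions.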

How the results depend on the processing

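Whether HSA32 passed after heat depended on the arrays and the block used. Its difference kept its sign under 20 alternatives, and without 1 array it lay between -5.53 and -4.21. The adjusted p was 0.0499 without wild-type heat replicate 2 and 0.684 without wild-type heat replicate 1 (both limma). Leaving out wild-type replicate 1 at both temperatures gave 0.0396 (difference -4.21). Calls after heat numbered 0 to 4 with 1 array left out, the 4 being without wild-type heat replicate 2, and 1 without both arrays of wild-type replicate 1, where the interaction also had 1. The count at an unadjusted p under 0.05, 280 as reported, was 749 without a filter, 105 with the dimmest 50% left out, 122 on the 4 heated arrays alone, 590 without both arrays of wild-type replicate 1, and 197 to 2048 with 1 array left out (526 without wild-type heat replicate 1, 2048 without wild-type heat replicate 2).

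With the replicate number as a block, 0 probe sets passed, HSA32 lay at -4.87 (adjusted p = 0.693) and 293 had an unadjusted p under 0.05. The numbers do not pair knockout with wild-type arrays (-0.389 between the heated groups). A crossed block, chosen after seeing the data from the residuals of these arrays, gave 1 call after heat, 1 in the interaction, -4.87 for HSA32 (adjusted p = 0.00513) and 783 at an unadjusted p under 0.05. The 24 other named genes gave 466 values over the alternatives, and did not pass in any of them. They kept direction, but they were picked without overlap between the heated groups. Leaving out an array or changing the offset could therefore not reverse them, and no conclusion is drawn from this. The causes of these changes were not tested. No detection calls were used, so how far a dim gene stood above background is not known, and differences of dim genes are limited by this most.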
